A study of Mus musculus with 8 samples.

Results

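Primary cilium and cystic kidney genes were read in whole pancreas of mice aged 1 week, in which the Glis3KO2 genotype was compared with wild type (WT). The list named 36 genes, of which 32 were found under that name on the arrays, by 66 of the 41174 probes in all. They fall into polycystins with fibrocystin (3 listed genes), intraflagellar transport (IFT) with its kinesin motor (12), Bardet-Biedl syndrome (BBS) genes (10), and nephronophthisis genes together with Joubert and Meckel syndrome genes, Bicc1 and Tulp3 (11). The value of a gene is that of the probe with the highest mean signal among its probes that were well above background on 4 or more of the 8 arrays. A further 3 listed genes, Bbs9, Bbs12 and Rpgrip1l, stood on the array under older names and were matched by RefSeq accession. They are given beside the 32, and Mks1 was not analysed here. The brightest probe of each of the 32 genes was well above background on all 8 arrays, so no gene entered through 1 genotype alone. Of the 66 probes 61 entered the test, the weakest of them on 4 arrays (1 of Ahi1 and 1 of Ift140), and 5 did not, the nearest being an Ift57 probe on 2. The array files give positions in mm7 with no exon or UTR annotation, but 13 of the 61 probes cover more genome than their length and so cross an intron.

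The groups were 4 Glis3KO2 and 4 WT samples of total pancreatic RNA, all from C57BL/6 pups that stayed with their mothers, with no treatment. The labels call the animals Glis3 knockouts, do not describe which stretch of the gene was removed, and do not say whether pups of 1 genotype came from separate litters. The p-values below therefore measure the spread between these samples, which the 4 arrays per genotype limit. Each sample was labelled with Cy3 from 500 ng of RNA and hybridised to 1 single-colour Agilent array of 60-base probes. Values are log2 signals relative to the 75th percentile of the same array, so that 0 is the brightness of that percentile and differences are Glis3KO2 minus WT.

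Between 31362 and 33222 probes per Glis3KO2 array and between 32675 and 35622 per WT array were well above background. The 4 Glis3KO2 arrays shared 1 slide and the 4 WT arrays shared a second, and an effect of the slide cannot be told apart from that of the genotype. Glis3KO2 replicates 3 and 4 stood apart on the first principal component, at 39.5 and 59.0, against -13.1 and 1.08 for the other Glis3KO2 arrays and -26.2 to -15.4 for WT. Xist, which is made from the silenced X of female cells, was high on 3 Glis3KO2 arrays and on 1 WT array. The Glis3 probe was well above background on 0 Glis3KO2 arrays and on 3 WT arrays. Ins2, the insulin gene that the knockout is known to affect, fell by 3.70 on the log2 scale (limma adjusted p = 5.18e-04). Of 11 listed acinar markers, genes of the enzyme-making cells that are the bulk of the pancreas, 10 entered the test with 0 called. These had 8 negative and 2 positive differences and a median of -0.13. Islet markers, by contrast, were called for 7 of 11, against 0.256% of all tested probes. Their median difference was -1.28, with a summed linear level of 413 to 776 in Glis3KO2 and 1053 to 1261 in WT. They did not all fall, with 9 negative and 2 positive differences, from -3.70 to 1.77. Nerve and glia markers (7 of 7 tested) had a median of -0.23 and endothelial markers (7 of 7) one of -0.16, with 0 called in either list. Their differences were negative for 7 of 7 and 6 of 7. In each list 2 of 7, or 28.6%, had an unadjusted p under 0.05 (limma), against 8.99% of all tested probes. Groups did not overlap for 28.6% of each list, against 5.21% of all tested probes. Mesenchyme markers (8 of 8 tested) had 8 positive differences, a median of 0.13 and 0 called. Islet cells carry primary cilia, and the part of their markers' difference in the values below was not tested. RNA was taken from whole tissue, in which fewer cells of a type and less RNA per cell cannot be told apart.

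The primary cilium is a single immotile projection that most cells of the pancreas outside the acini carry, among them duct and islet cells. IFT particles carry cargo along it, BBS proteins form a coat that sorts membrane proteins, and the nephronophthisis, Joubert and Meckel proteins build the gate at its base. The polycystins form a channel on the cilium whose loss causes cysts in the kidney and can cause them in the pancreas. Glis3, a Krüppel-like zinc finger protein close to the Gli factors of Hedgehog signalling, is itself found at the cilium, and its loss in mice and humans is known to cause neonatal diabetes and cystic kidneys.

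None of the 32 genes differed between Glis3KO2 and WT at an adjusted p of 0.05 (limma, Benjamini-Hochberg over 33253 tested probes, of which 0.256% were called, 0.0812% higher and 0.174% lower in Glis3KO2). At an unadjusted p under 0.05 there was 1 of the 32 by the brightest probe. Over the 61 tested probes of the 32 genes there were 5, or 8.20%, against 8.99% of all tested probes. The median difference of the 32 genes was -0.03, with 22 negative and 10 positive, against a median of -0.01 and 51.9% negative over all tested probes. Many of these differences lay close to 0, and with arrays scaled to their median in place of the 75th percentile the split was 16 negative and 16 positive. With the 3 genes matched by accession it was 22 negative and 13 positive. The median absolute difference was 0.066, against 0.127 over all tested probes, which are not limited to the brightest probe of each gene. Over the 61 tested probes of the 32 genes it was 0.075. The 95% interval of the difference stayed within 1.5-fold either way for 29 of the 32 genes and within 2-fold for all 32. Invs, Kif3a and Bbs1 were the 3 genes whose interval went beyond 1.5-fold. The interval stayed within 1.5-fold for 48 of the 61 tested probes of the 32 genes, or 78.7%, against 64.3% of all tested probes. With the 3 genes matched by accession, 0 of 35 passed the threshold. The smallest absolute log2 difference called among all probes was 0.67, and the largest among the brightest probes of the 32 genes was 0.61.

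**Figure D1:**
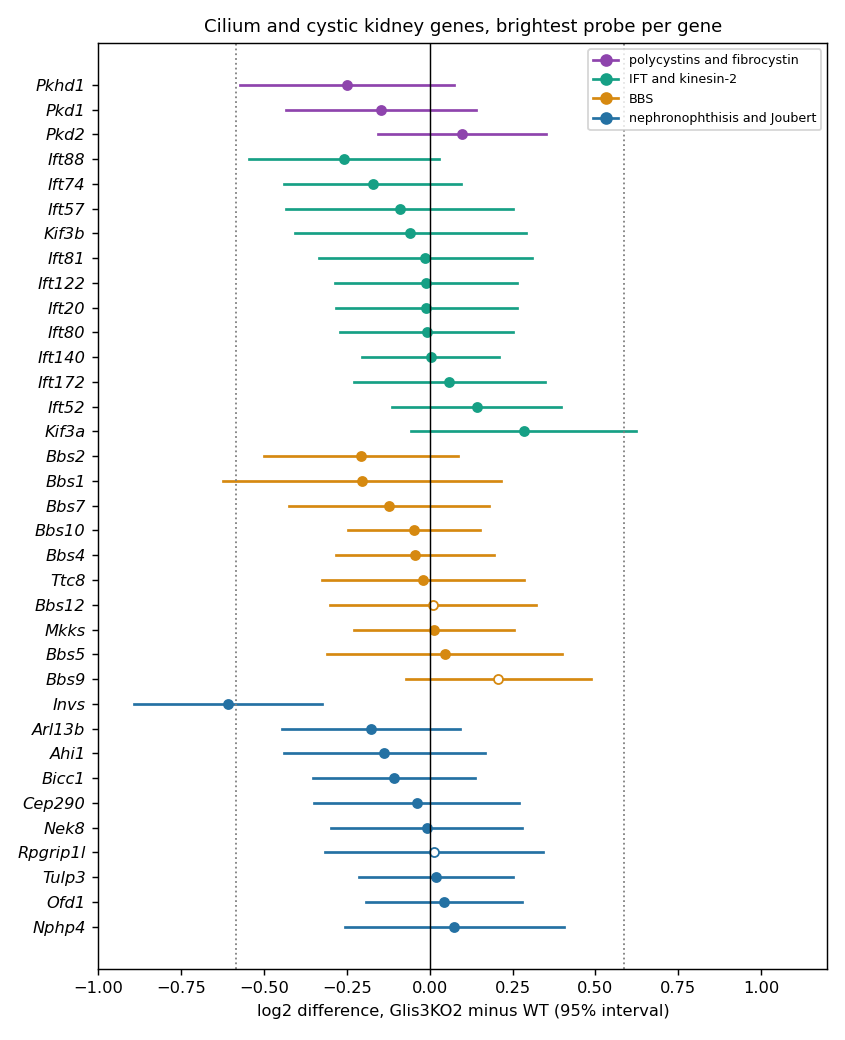
Log2 difference, Glis3KO2 minus WT, with its 95% interval for the brightest probe of each gene (x axis), grouped by colour. Open circles are the 3 genes matched by accession, dotted lines mark 1.5-fold, and the interval of Invs alone lies wholly below 0.

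**Figure D2:**
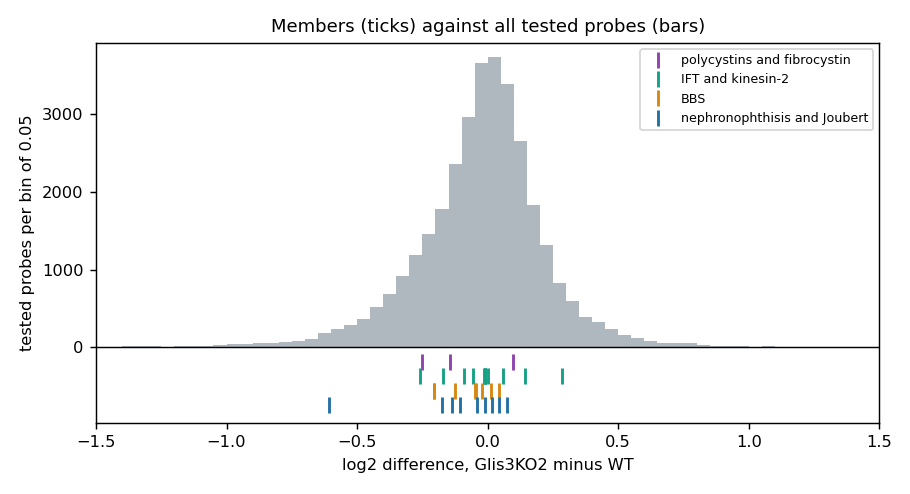
Log2 differences of the 32 genes (ticks below the axis, coloured by group) against the number of tested probes per bin of 0.05 (bars, drawn from -1.5 to 1.5). All ticks but that of Invs, at -0.61, lie between -0.26 and 0.28.

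Pkd1 encodes polycystin-1, the large receptor-like partner of the polycystin channel. Its log2 signal was 1.74, 1.69, 1.32 and 1.40 on Glis3KO2 replicates 1 to 4 and 1.68, 1.81, 1.54 and 1.71 on WT replicates 1 to 4. Glis3KO2 replicates 3 and 4 lay below all WT arrays, and replicates 1 and 2 within their range. The difference was -0.15 (SE 0.13, limma adjusted p = 0.786), and without Glis3KO2 replicates 3 and 4 it was 0.03.

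Pkd2 encodes polycystin-2, the channel subunit. Its brightest probe read 1.51, 1.85, 1.77 and 1.74 in Glis3KO2 and 1.47, 1.58, 1.72 and 1.70 in WT, and the groups overlapped. The difference was 0.10 (SE 0.11, adjusted p = 0.853). A dimmer probe 2.22 kb away on chromosome 5 (array build mm7) had a difference of the other sign, -0.09 (adjusted p = 0.911).

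Pkhd1 encodes fibrocystin, the membrane protein of recessive polycystic kidney disease, which is also made in pancreatic and bile ducts. It was the 1 gene of its group with 3 tested probes, and their sequences are shown because the probes read separate stretches of a long gene. Each is given 5′ to 3′ as the array files hold it.
Pkhd1 probe 1, chr1:20247450-20247509, minus strand of mm7: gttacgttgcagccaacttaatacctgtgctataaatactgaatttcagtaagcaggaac
Pkhd1 probe 2, chr1:20788049-20788108, minus strand of mm7: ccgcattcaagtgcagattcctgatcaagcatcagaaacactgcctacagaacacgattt
Pkhd1 probe 3, chr1:20259928-20259987, minus strand of mm7: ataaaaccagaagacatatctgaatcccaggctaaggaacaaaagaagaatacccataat
Probes 1 and 3 lie 12.5 kb apart and carry the accession of the RefSeq mRNA, while probe 2 lies 528.1 kb from probe 3 towards the start of the gene and carries that of a separate cDNA. Probe 1, the brightest, read 0.11, 0.17, 0.33 and 0.22 in Glis3KO2 and 0.56, 0.27, 0.80 and 0.21 in WT. The Glis3KO2 arrays were close together and overlapped with WT replicates 2 and 4, and the difference was -0.25 (SE 0.14, adjusted p = 0.667).

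Probe 2 of Pkhd1 read -0.26, -0.10, -0.48 and -0.19 in Glis3KO2 and 0.24, 0.24, 0.66 and 0.41 in WT. All 4 Glis3KO2 arrays were lower than all 4 WT arrays. The mean was -0.26 ± 0.16 in Glis3KO2 and 0.39 ± 0.20 in WT (SD, n = 4 each), a difference of -0.65 (SE 0.13) with an unadjusted p of 9.03e-04 that did not pass after adjustment over all probes (limma adjusted p = 0.140). Probe 3 read -2.92, -2.77, -2.71 and -2.98 in Glis3KO2 and -2.41, -2.56, -2.11 and -2.71 in WT, with a difference of -0.39 (SE 0.14, adjusted p = 0.458) and an overlap at its edge. All 3 probes thus had negative differences and none passed the threshold. The mean over the 3 probes had a difference of -0.43 (limma adjusted p = 0.337), against -0.25 for the brightest probe alone. Without Glis3KO2 replicates 3 and 4 the 3 differences were -0.32, -0.57 and -0.39.

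**Figure D3:**
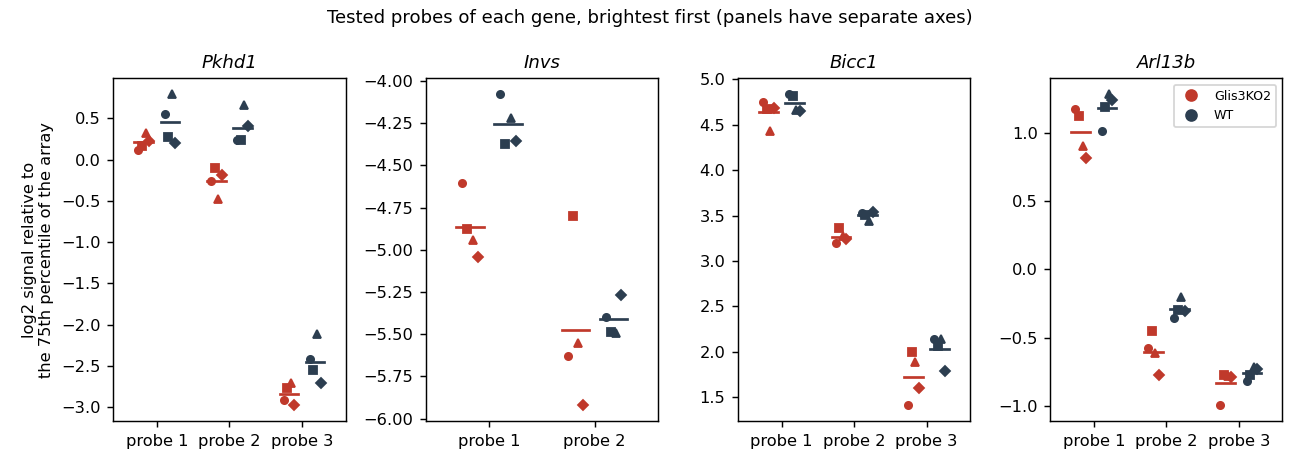
Log2 signal relative to the 75th percentile of the array (y axis, separate for each panel) for every tested probe of Pkhd1, Invs, Bicc1 and Arl13b, brightest first, with the 4 Glis3KO2 arrays left of the 4 WT arrays. Marker shapes are replicates and bars are means. Probe 2 of Pkhd1, probe 1 of Invs, probe 2 of Bicc1 and probe 2 of Arl13b are the 4 probes whose groups do not overlap.

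Among the nephronophthisis genes, Invs encodes inversin, a protein of the base of the cilium that is needed for left-right asymmetry and is known for kidney and pancreatic defects when lost in mice. It had the largest difference among the 32 genes. Its 2 tested probes are shown because they disagreed.
Invs probe 1, chr4:48294792-48294851, plus strand of mm7: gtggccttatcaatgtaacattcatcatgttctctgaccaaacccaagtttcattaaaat
Invs probe 2, chr4:48444896-48444955, plus strand of mm7: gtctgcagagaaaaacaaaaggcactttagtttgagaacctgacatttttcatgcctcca
Probe 1 carries the accession of a cDNA and lies 150.1 kb towards the start of the gene from probe 2, which carries that of the RefSeq mRNA. Probe 1 read -4.60, -4.87, -4.94 and -5.04 in Glis3KO2 and -4.08, -4.37, -4.22 and -4.36 in WT. It was well above background on all 8 arrays, and all Glis3KO2 arrays were lower than all WT arrays. Of the 32 genes it was the 1 whose groups did not overlap by the brightest probe. Over the 61 tested probes of the 32 genes the share was 6.56%, against 5.21% of all tested probes. The mean was -4.87 ± 0.19 in Glis3KO2 and -4.26 ± 0.14 in WT (SD, n = 4 each), a difference of -0.61 or 1.52-fold (SE 0.13, limma adjusted p = 0.140).

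Probe 2 of Invs read -5.63, -4.80, -5.55 and -5.92 in Glis3KO2 and -5.40, -5.49, -5.49 and -5.27 in WT. Glis3KO2 replicate 2 was above all WT arrays and the other 3 Glis3KO2 arrays below them, with a difference of -0.06 (SE 0.22, adjusted p = 0.963). Both probes were dim. An added offset by construction shrinks differences of dim probes. With normexp background and an added offset of 50, probe 1 had -0.25 (limma adjusted p = 0.603). Probe 2 did not shrink, and had -0.18 against -0.06 in the main fit. The mean over both probes had a difference of -0.34 (limma adjusted p = 0.528).

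Bicc1, an RNA-binding protein whose loss gives cystic kidneys in mice, was read by 3 tested probes within 2.12 kb of chromosome 10. The brightest read 4.75, 4.68, 4.43 and 4.68 in Glis3KO2 and 4.84, 4.82, 4.66 and 4.65 in WT, a difference of -0.11 (SE 0.11, adjusted p = 0.825). Glis3KO2 replicate 3 was the lowest array, and the other 3 lay within the WT range. The next probe read 3.20, 3.36, 3.28 and 3.24 in Glis3KO2 and 3.53, 3.51, 3.44 and 3.54 in WT. There the groups did not overlap, with a difference of -0.24 (SE 0.09, adjusted p = 0.478). The third probe had a difference of -0.31 (adjusted p = 0.603).

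Arl13b, a small GTPase of the ciliary membrane mutated in Joubert syndrome, also had 3 probes, all with negative differences. The brightest, which crosses an intron, read 1.18, 1.13, 0.91 and 0.82 in Glis3KO2 and 1.02, 1.19, 1.29 and 1.24 in WT, a difference of -0.18 (SE 0.12, adjusted p = 0.715). Glis3KO2 replicates 3 and 4 lay below all WT arrays, and without them the difference was -0.03. The second probe had a difference of -0.31 with groups that did not overlap (SE 0.10, adjusted p = 0.403), and the third had -0.08 (adjusted p = 0.873). Over the 61 tested probes of the 32 genes, 4 probes had groups that did not overlap with Glis3KO2 lower, or 6.56%, against 3.36% of all tested probes. Probes with Glis3KO2 higher numbered 0, against 1.85% of all tested probes. In either direction the share was 6.56%, against 5.21% of all tested probes, and probes of 1 gene are not independent of each other. Each of these 4 probes had a sister probe of the same gene whose groups overlapped.

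Ahi1, whose product jouberin lies at the gate of the cilium, read -1.79, -1.97, -2.17 and -2.20 in Glis3KO2 and -2.15, -1.74, -1.84 and -1.85 in WT. The groups overlapped, with a difference of -0.14 (SE 0.13, adjusted p = 0.820). A dimmer Ahi1 probe had a difference of 0.02 and the dimmest had -0.04. Nek8, a kinase of the inversin compartment, had -0.01 by its brightest probe and 0.01 by the other. The remaining genes of the group were Cep290, a scaffold of the gate, at -0.04, Nphp4, a partner of the gate, at 0.07, Tulp3, an adaptor that brings receptors into the cilium, at 0.02, and Ofd1, a centriole protein encoded on the X chromosome, at 0.04. Ofd1 read between 1.61 and 1.81 on the Glis3KO2 arrays and between 1.56 and 1.87 on the WT arrays. The 9 genes had a median difference of -0.04, and Rpgrip1l, a gate protein matched by accession, had 0.01 and 0.02 by its 2 tested probes.

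**Figure D4:**
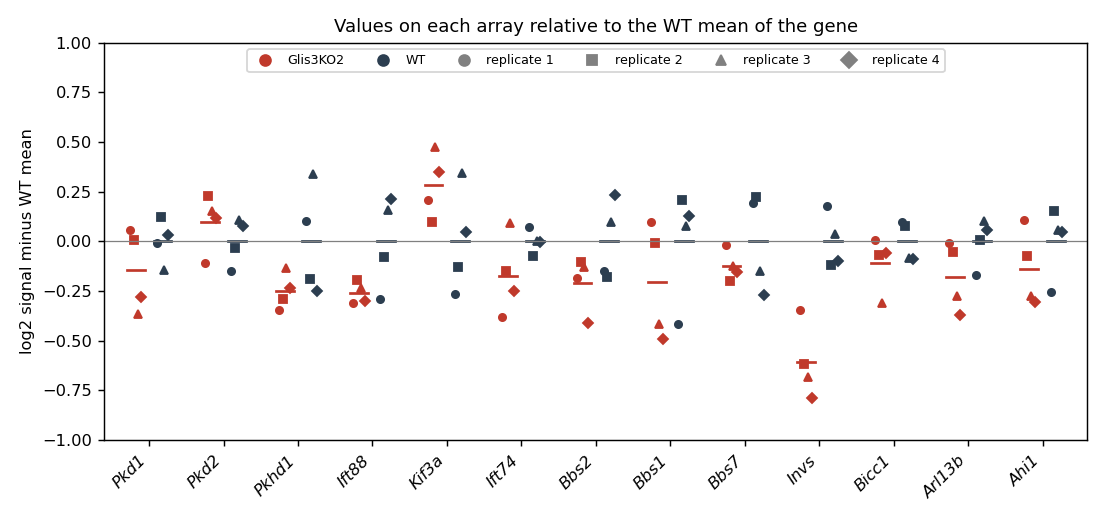
Log2 signal of 13 genes on each array minus the WT mean of the gene (y axis), with the 4 Glis3KO2 arrays left of the 4 WT arrays for each gene. Shapes are replicates and bars are means; the groups overlap for all of the 13 except Invs.

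The IFT genes encode the particles that build and maintain the cilium and the kinesin that moves them. All 12 were measured, and 0 passed the threshold or an unadjusted p under 0.05 (limma), with 8 negative and 4 positive differences and a median of -0.01. That split turned to 4 negative and 8 positive, with a median of 0.01, when arrays were scaled to their median. Ift88, the gene mutated in the Oak Ridge polycystic kidney mouse, read -0.96, -0.84, -0.88 and -0.95 in Glis3KO2 and -0.94, -0.73, -0.50 and -0.44 in WT. The Glis3KO2 arrays lay at the lower end and overlapped only with WT replicate 1, with a difference of -0.26 (SE 0.13, adjusted p = 0.602). Kif3a, a motor subunit of kinesin-2, read -0.57, -0.68, -0.31 and -0.43 in Glis3KO2 and -1.05, -0.91, -0.44 and -0.73 in WT. Its difference, 0.28 (SE 0.15, adjusted p = 0.634), was the largest positive one among the 32 genes, and WT replicate 3 lay within the Glis3KO2 range. Its partner Kif3b had -0.06 by its brightest probe and -0.16 by the other.

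Ift74, a subunit of the core of the IFT-B particle, read -0.52, -0.29, -0.05 and -0.39 in Glis3KO2 and -0.07, -0.22, -0.14 and -0.15 in WT. The difference was -0.17 (SE 0.12, adjusted p = 0.725), with 3 Glis3KO2 arrays below all WT arrays and replicate 3 above them. Its binding partner Ift81 had a difference of -0.01. The other IFT-B genes had differences of -0.01 for Ift20, which also works at the Golgi, -0.09 for Ift57, 0.06 for Ift172, 0.14 for Ift52 and -0.01 for Ift80. Of the IFT-A genes, which serve return transport, Ift122 had -0.01 and Ift140 had 0.003. For Ift57, a probe that crosses an intron of over 20 kb gave -0.07, close to the -0.09 and -0.02 of the probes that do not.

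Probes of 1 gene with differences of opposite sign were found for 6 of the 20 genes with several tested probes. Besides Pkd2, Ahi1 and Nek8 these were Ift20, at -0.01 and 0.05, Ift172, at 0.06, 0.03, 0.11 and -0.16, and Ift140, at 0.003, 0.39, -0.25 and 0.39. The deviating probe of Ift172 varied most between arrays, from -4.85 to -3.10 in Glis3KO2 and from -4.87 to -2.32 in WT. A further 11 genes had negative differences by every probe and 3 had positive ones, namely Ift52, Bbs5 and Mkks.

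The BBS genes encode the coat complex called the BBSome and the chaperonin-like proteins that assemble it. By name 8 of 10 were measured, 6 with negative and 2 with positive differences, a median of -0.05, and 0 past the threshold or an unadjusted p under 0.05 (limma). Bbs2, a core subunit, read -1.66, -1.58, -1.60 and -1.89 in Glis3KO2 and -1.63, -1.66, -1.38 and -1.24 in WT. The difference was -0.21 (SE 0.13, adjusted p = 0.692), and Glis3KO2 replicate 4 and WT replicate 4 marked the ends of the range. Bbs1, a subunit of the same coat, read -4.27, -4.37, -4.78 and -4.86 in Glis3KO2 and -4.78, -4.16, -4.29 and -4.24 in WT. Its difference was -0.20 (SE 0.19, adjusted p = 0.798), with Glis3KO2 replicates 3 and 4 and WT replicate 1 at the low end, and without those Glis3KO2 replicates it was 0.05.

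Bbs7, likewise in the coat, read -4.86, -5.05, -4.97 and -5.00 in Glis3KO2 and -4.65, -4.62, -5.00 and -5.11 in WT. The difference was -0.12 (SE 0.13, adjusted p = 0.842), and the Glis3KO2 arrays lay within the WT range. A second Bbs7 probe had -0.21. Bbs4 had -0.04 by its brightest probe and -0.26 by the other, which crosses an intron. Bbs5 had 0.04 and 0.03 by its probes, and Ttc8, also called BBS8, had -0.02. The chaperonin-like genes Bbs10 and Mkks had -0.05 and 0.01, and a dimmer Mkks probe had 0.07. Bbs9 and Bbs12, matched by accession, had 0.21 (adjusted p = 0.685) and 0.01. The pair of Bbs10 probes is shown because the probes overlap and so are not separate readings of the gene. Capitals mark the 40 bases they share.
Bbs10 probe 1, chr10:110761633-110761692, plus strand of mm7: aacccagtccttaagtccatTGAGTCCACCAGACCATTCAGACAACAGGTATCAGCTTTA
Bbs10 probe 2, chr10:110761653-110761712, plus strand of mm7: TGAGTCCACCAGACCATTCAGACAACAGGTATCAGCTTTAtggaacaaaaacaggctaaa
They had differences of -0.05 and -0.03, with SEs of 0.09 and 0.10.

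Among the promoters, a sequence feature that many cilium genes are known to carry was looked for, the X-box bound by RFX factors. It was searched on both strands as the letters GTNNCC and GGNAAC with 1 to 3 bases between them, in the 300 bases around each RefSeq start, most of them upstream (GRCm38.p6). Of the 36 listed genes 32 had a promoter there, and 7 of these, or 21.9%, held a match, against 2.49% of all genes with a promoter of that length and 2.16% of all 32851 promoters. The matches of 6 measured genes are printed to show the bases at the open positions and around the match, with the matched bases in capitals, 5′ to 3′ along the gene. Those printed for Bbs1 and Ift57 fit the letters when read on the opposite strand.
Ahi1, chr10:20952555-20952594, plus strand: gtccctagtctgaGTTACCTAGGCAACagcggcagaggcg
Bbs1, chr19:4906600-4906639, minus strand: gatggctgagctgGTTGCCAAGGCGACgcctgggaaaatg
Bbs4, chr9:59353459-59353498, minus strand: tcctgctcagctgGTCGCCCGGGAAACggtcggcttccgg
Bbs7, chr3:36613484-36613523, minus strand: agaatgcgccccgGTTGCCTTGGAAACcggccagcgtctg
Ift57, chr16:49699194-49699233, plus strand: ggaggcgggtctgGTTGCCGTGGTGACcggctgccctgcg
Nphp4, chr4:152477898-152477937, plus strand: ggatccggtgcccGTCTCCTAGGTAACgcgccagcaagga
Ift57 held a further match next to the one printed, which fits the letters along the gene, and the seventh gene was Mks1. The 6 measured genes had differences of -0.14 for Ahi1, -0.20 for Bbs1, -0.04 for Bbs4, -0.12 for Bbs7, -0.09 for Ift57 and 0.07 for Nphp4. The letters TGGGGGGT, the core of the known GLIS binding site, were found on either strand in 0 of the 32 listed genes with a promoter. The share was 1.79% of all genes with a promoter and 1.53% of all promoters, so that a count of 0 says little. These 32 include Mks1 and so are not the same as the 32 genes measured by name. A match is a description of the letters and a lack of one says only that they are not in this window.

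Across arrays, the median deviation of the 32 genes from their WT means was -0.01, -0.06, -0.02 and -0.14 on Glis3KO2 replicates 1 to 4 and -0.11, -0.07, 0.10 and 0.01 on WT replicates 1 to 4. The Glis3KO2 medians thus lay within or just below the span of the WT medians. The nephronophthisis group was lowest on Glis3KO2 replicates 3 and 4, at -0.20 and -0.16, against 0.01 and -0.07 on replicates 1 and 2 and -0.04 to 0.06 in WT. The polycystin group was lowest on Glis3KO2 replicate 4, at -0.23, against -0.03 to 0.11 in WT. Duct markers, fixed as a list of 12 genes, all entered the test with 0 called, 4 negative and 8 positive differences and a median of 0.04. Their summed linear level was 317 to 353 in Glis3KO2 and 266 to 354 in WT. Of the duct genes, Sox9, which is also a progenitor factor, had the lowest difference, -0.38 (limma adjusted p = 0.431), with all Glis3KO2 arrays below all WT arrays. It was the 1 duct gene whose groups did not overlap, or 8.33%, against 5.21% of all tested probes. Proliferation markers, 10 of 10 tested with 0 called, had a median difference of 0.42 and a summed level of 43.78 to 63.97 in Glis3KO2 and 43.55 to 50.04 in WT. Of the 10, 9 had positive and 1 had negative differences. An unadjusted p under 0.05 (limma) was reached by 6 of 10, against 8.99% of all tested probes. Dividing cells take down their cilium, and the part of the proliferation markers' difference in any value above was not tested.

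**Figure D5:**
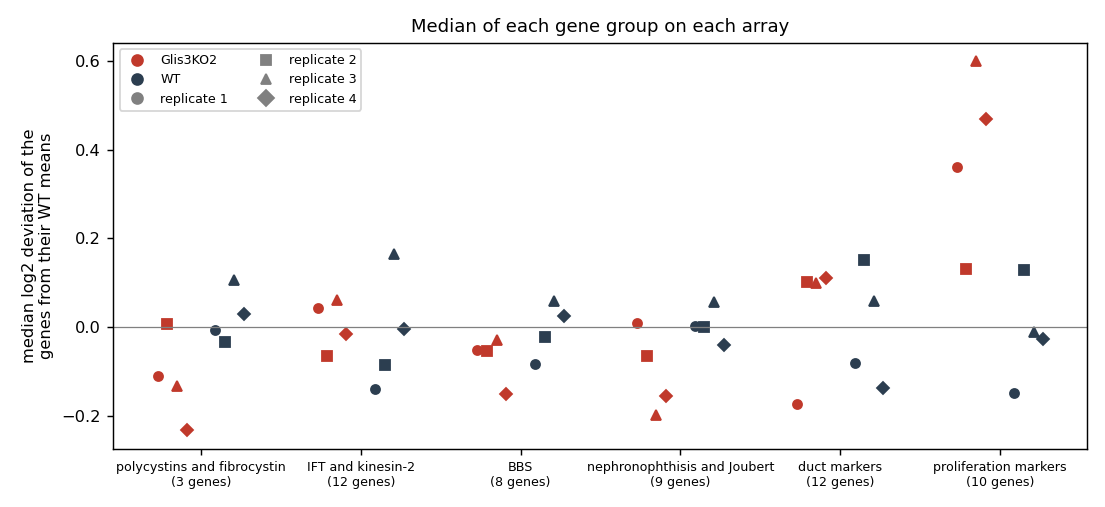
Median log2 deviation of the genes of each group from their WT means (y axis) on each array, with the 4 Glis3KO2 arrays left of the 4 WT arrays; shapes are replicates. The cilium groups lie between -0.23 and 0.17 on all arrays, while proliferation markers reach 0.60 on Glis3KO2 replicate 3.

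Genes of the same pathways outside the list were read in the same way. Of 55 further genes of IFT, BBS, the gate and polycystic disease, 47 were tested and 0 passed the threshold (limma), with 1 at an unadjusted p under 0.05, 20 negative and 27 positive differences and a median of 0.03. Dync2h1, the heavy chain of the motor for return transport, had the smallest p. It read 0.66, 0.54, 0.37 and 0.08 in Glis3KO2 and 0.56, 0.85, 1.04 and 0.83 in WT, a difference of -0.41 (SE 0.15, adjusted p = 0.478). It was -0.22 without Glis3KO2 replicates 3 and 4, and of its 7 tested probes 5 had negative and 2 had positive differences, up to 0.31. Its partner Dync2li1 had the next, at 0.22 (SE 0.10, adjusted p = 0.566), with all Glis3KO2 arrays above all WT arrays. Dync2li1 was the 1 of the 47 whose groups did not overlap, or 2.13%, against 5.21% of all tested probes. Anks3, a partner of the inversin compartment, had -0.24 (adjusted p = 0.676) and Prkcsh, a gene of polycystic liver disease, 0.23 (adjusted p = 0.689).

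Motile cilium markers were read beside these as a check on another kind of cilium. Of the 10 listed, 7 were tested and 1 was called, Foxj1, the regulator of motile cilia, against 0.256% of all tested probes. An unadjusted p under 0.05 (limma) was reached by 2 of the 7, or 28.6%, against 8.99% of all tested probes. Groups did not overlap for 2 of the 7, both with Glis3KO2 lower, against 3.36% of all tested probes. The 7 had 4 negative and 3 positive differences, a median of -0.08, and a summed level of 10.4 to 14.1 in Glis3KO2 and 8.17 to 19.2 in WT, so that the sums overlapped. The log2 signal of Foxj1 was -4.38, -3.90, -3.91 and -4.28 in Glis3KO2 and -2.58, -2.92, -1.95 and -2.43 in WT, so that it fell by 1.65 on the log2 scale (limma adjusted p = 0.0209). With normexp background and the offset of 50 the difference was -0.83 (limma adjusted p = 0.00715), and without Glis3KO2 replicates 3 and 4 it was -1.67 (limma adjusted p = 0.198). Kidney markers, 7 of 8 tested with 0 called, had a summed level of 3.20 to 4.62 in Glis3KO2 and 2.90 to 3.15 in WT. Of the 7, 6 had positive and 1 had negative differences, with a median of 0.07. An unadjusted p under 0.05 (limma) was reached by 2 of the 7, or 28.6%, against 8.99% of all tested probes. Cdh16, a cadherin of kidney tubules, was the kidney marker with the smallest p. It read 0.13, -1.26, -0.84 and 0.76 in Glis3KO2 and -1.88, -1.86, -2.38 and -1.91 in WT. All Glis3KO2 arrays were higher, with a difference of 1.71 (SE 0.40) that did not pass the threshold (limma adjusted p = 0.216). It was the 1 kidney marker whose groups did not overlap, or 14.3%, against 5.21% of all tested probes. Umod and Slc12a1, further markers of the tubules, had differences of 0.06 and 0.07.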

How the data were processed

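Total pancreatic RNA of 4 Glis3KO2 and 4 WT mice was read on 1 Agilent array each. Per the file headers, the authors' software was Agilent Feature Extraction 9.5.3.1. The deposited intensity values are processed signals, background-subtracted and detrended within the array but not scaled between arrays. The deposited series table held the same values.

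From these, control and outlier-flagged spots were left out, spots of 1 probe were averaged, and log2 signals had the 75th percentile of their array subtracted. Probes that stood well above background on 4 or more of the 8 arrays were fitted with limma 3.58.1 in R 4.3.3 (lmFit and eBayes, genotype as the only term, two-sided), with Benjamini-Hochberg adjustment over all of them and a threshold of 0.05. Symbols were updated by RefSeq accession (22951 of 25510 probes with one matched), and promoters came from RefSeq, GRCm38.p6.

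Members, lists and tests were chosen with earlier results of these data known. Values on every array are printed for Pkd1, Pkd2, Pkhd1, Invs, Bicc1 and the 3 genes with the smallest unadjusted p of each of the IFT, BBS and nephronophthisis groups. For genes outside the list, those with the 4 smallest p are named. Markers named among other cell types were chosen after their values were seen. Alternatives covered background, normalization, the filter on dim probes, the spread estimate, the probe per gene, the replicate number as a block and arrays left out. Signal over background and the 4 arrays per group limit the precision.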

Additional observations from a re-analysis of the deposited data

Results flagged for a closer look

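Of 70 groups of 4 arrays looked at, 1 held an array far from its others, where chance gives about 1 in 20. It was WT replicate 1 for Bbs12, a chaperonin-like BBS gene matched by accession. That array read -2.21 against -1.96 to -1.92 on the other WT arrays, so that its gap took up 0.852 of the range, above Dixon's limit for 4 arrays. The difference of Bbs12 between Glis3KO2 and WT was 0.01.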

How the results depend on the processing

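Under each of the 18 alternatives 0 of the 32 genes passed the threshold (limma), with 1 to 3 at an unadjusted p under 0.05 and a lowest adjusted p of 0.072, without Glis3KO2 replicate 1. Of 576 recomputed differences of the 32 genes, 569 moved by less than the spread between replicates and 66 had the other sign, none of them past the threshold, so that 16 to 23 of the 32 were negative. The 7 that moved further were Invs (-0.25 with normexp and an offset of 50, -0.34 as the mean over probes), Ift140 (0.13) and Bbs4 (-0.15) as means over probes, and Pkd1 (0.032), Kif3b (0.20) and Nek8 (0.19) without Glis3KO2 replicates 3 and 4. Without Glis3KO2 replicates 3 and 4 the median of the polycystin group, which is then that of Pkd1, was 0.032. Leaving out 1 array at a time gave medians of -0.07 to -0.01 for the 32 genes, -0.21 to -0.07 for polycystins, -0.07 to 0.03 for IFT, -0.08 to -0.03 for BBS and -0.08 to -0.01 for nephronophthisis genes.

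The count of all probes past the threshold, 85, was less stable. It was 51 with no filter on dim probes, 143 with a trended and robust spread, 11 without Glis3KO2 replicates 3 and 4, and 34 to 96 with 1 array left out (39 without Glis3KO2 replicate 3, 39 without Glis3KO2 replicate 4, 34 without WT replicate 1, 35 without WT replicate 3 and 36 without WT replicate 4). With the Xist level as a covariate, chosen after seeing the data, it was 27. The cause was not tested, though leaving out arrays also removes samples. Deviations of arrays with the same replicate number correlated at 0.128, 0.0896, 0.237 and -0.0373, against -0.203 to 0.136 for arrays with different numbers. These values do not settle whether the arrays were paired, and the numbers were not taken as pairs in the main fit. With the replicate block 15 probes and 0 of the 32 genes passed. The mean over probes was run for the listed genes alone.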
